A study of Mus musculus with 24 samples.

Results

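Reelin and the proteins that carry its signal into neurons were examined as 4 mRNAs, *Reln*, *Vldlr*, *Lrp8* and *Dab1*, picked by gene symbol from the 15456 genes measured in the medial prefrontal cortex (mPFC) of mice. The 24 mice were BALB/C, a strain used as a model of depressive-like behavior, at postnatal week 11, with 6 in each of 4 groups, and the study's methods give all animals as male. Control mice, labelled as not treated, received phosphate-buffered saline, the duloxetine treated group received daily intraperitoneal duloxetine, an inhibitor of serotonin and norepinephrine reuptake, the *R. flavefaciens* treated group received the gut bacterium *Ruminococcus flavefaciens* by gavage, and the last group received both *R. flavefaciens* and duloxetine. The groups were compared to find what the bacterium and the antidepressant, alone and together, do to gene expression in the mPFC. Libraries held between 12811413 and 15607343 reads assigned to genes, and each of the 4 mRNAs was counted by at least 815 reads in each mouse.

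Reelin is a large secreted glycoprotein. In the developing cortex it comes mainly from Cajal-Retzius cells and guides where migrating neurons settle, and in the adult cortex it is made mainly by GABAergic interneurons and modulates synapses and dendritic spines. It binds the lipoprotein receptors encoded by *Vldlr* and *Lrp8* (apolipoprotein E receptor 2), whose clustering leads Src-family kinases to phosphorylate the adaptor protein Dab1.

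The ligand was the member that differed most from control. *Reln* was lower in every mouse given *R. flavefaciens*, alone or with duloxetine, than in every control mouse, with fitted differences of -22.4% and -19.7%. On the log2 scale the 2 differences were -0.37 and -0.32, and -0.19 and -0.27 with a trend on gene length removed from each mouse. In mice given duloxetine alone *Reln* lay in between. The fitted differences of *Dab1* were -6.72% and -8.77% in the same comparisons, while *Vldlr* and *Lrp8* were lower mainly in the *R. flavefaciens* treated group, where 1 mouse, 9_3, weighed heavily on the mean. The same mouse weighed on *Dab1* with the bacterium, which went from -0.10 on the log2 scale to -0.062 without it. The genes were chosen with earlier results of these data in view, so these values describe them, and the adjusted p-values below place each gene among the 14974 genes tested and lend no separate support. None of the 4 passed an adjusted p of 0.05 in any comparison of the reported limma fit. Under DESeq2 and some other settings, given below, *Reln* did pass.

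*Reln* (ENSMUSG00000042453.14) lies on the minus strand of chromosome 5, from 21884454 to 22344702 on GRCm38. Its promoter is shown because *Reln* carried the largest difference. The 250 bases before the RefSeq start site, chr5:22344706-22344955 on GRCm38.p6, are given on the gene's strand, with each CG in capitals:
Reln promoter: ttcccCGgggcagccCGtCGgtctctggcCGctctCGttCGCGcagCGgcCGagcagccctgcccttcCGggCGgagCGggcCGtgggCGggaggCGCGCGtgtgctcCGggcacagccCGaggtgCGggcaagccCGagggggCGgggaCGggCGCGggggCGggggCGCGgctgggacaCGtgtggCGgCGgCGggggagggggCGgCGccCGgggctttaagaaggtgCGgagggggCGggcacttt
These bases hold 37 CG dinucleotides, a count that 2.20% of the 32851 RefSeq promoters of this length reach (median 6). CG reads the same on both strands. Methylation was not measured in these mice, so the sequence is a description only.

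Normalized counts of *Reln*, read counts divided by a size factor for each library, ran from 1439 to 1606 in control mice with a median of 1513. In duloxetine treated mice they ran from 1128 to 1453 (median 1369), in *R. flavefaciens* treated mice from 963 to 1339 (median 1201), and in mice given both from 1008 to 1388 (median 1226). The control values therefore did not overlap with those of either group given the bacterium, and the highest value in these groups stayed below the lowest control. They overlapped with duloxetine treated mice, of which 4 of 6 were below all controls and 6 of 6 below the control mean. Of all genes tested, 0.835% were likewise lower in every *R. flavefaciens* treated mouse than in every control, and 1.16% were so in the group given both treatments, against 0.167% in the duloxetine treated group. For any of the 4 members, shares of genes with fewer than 6 of 6 mice below all controls were not counted.

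**Figure D1:**
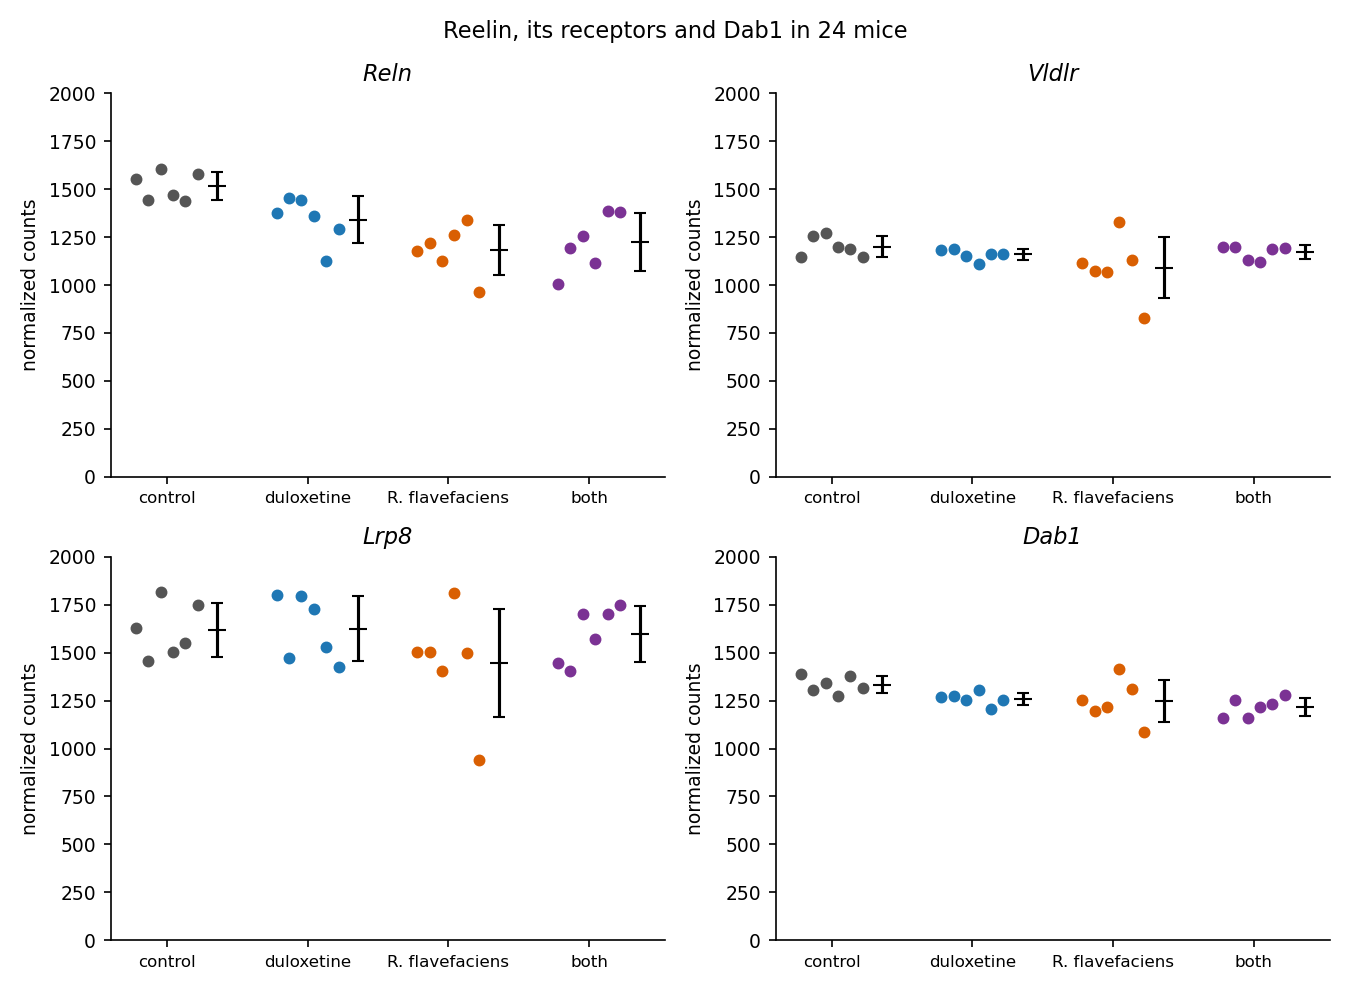
Normalized counts (y axis, from 0) of *Reln*, *Vldlr*, *Lrp8* and *Dab1* in 24 mice, 6 a group (x axis); each point is a mouse and the bar beside them is the mean with its SD. *Reln* fell between 1439 and 1606 in control mice and between 963 and 1388 in the mice given *R. flavefaciens* with or without duloxetine; the lowest point of the *R. flavefaciens* group is the same mouse in each panel.

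Mean *Reln* was 1516 ± 73.1 (SD, n = 6) in control, 1342 ± 120 (n = 6) in duloxetine treated, 1182 ± 129 (n = 6) in *R. flavefaciens* treated and 1225 ± 150 (n = 6) in mice given both. Differences were fitted with limma on log2(normalized count + 1), and log2 fold changes below are on that scale. In *R. flavefaciens* treated mice the log2 fold change against control was -0.37 (SE 0.077, 95% interval -0.52 to -0.21), with a limma adjusted p of 0.0687. *Reln* ranked 11th by p-value in that comparison, in which 4 genes (0.0267%) passed the threshold. In mice given both treatments it was -0.32 (SE 0.077, 95% interval -0.47 to -0.16), adjusted p = 0.0777 by limma, where 15 genes (0.1%) passed. Duloxetine alone gave -0.18 (95% interval -0.34 to -0.022), with 0.0% of genes called and an adjusted p of 0.9996 by limma.

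Mice given both treatments differed from those given duloxetine alone by -0.14 (95% interval -0.29 to 0.022; 0.0% of genes called; -0.19 to -0.082 with 1 mouse left out, nearest to 0 without 10_2). From those given the bacterium alone they differed by 0.05 (95% interval -0.11 to 0.21), a comparison in which 2.23% of genes passed. Of the mice given both, 2 of 6 were above all mice given the bacterium alone. The share of genes with 2 of 6 above was not counted, while 0.614% had all 6 above. The difference from the bacterium alone turned to -0.0086 without mouse 9_3, to -0.038 without 8_4 and 9_3 and to -0.075 with a trend on gene length removed from each mouse. The interaction of the treatments was 0.23 on the log2 scale (SE 0.11, limma adjusted p = 0.647; 0.0% of genes called), which means that the differences with bacterium and with drug added up to more than the difference with both. Averaged over duloxetine, the main effect of *R. flavefaciens* on *Reln* was -0.25 (SE 0.054, adjusted p = 0.0891 by limma, with 0.0267% of genes called), and the main effect of duloxetine was -0.07 (SE 0.054). With 1 mouse left out the latter ran from -0.094 (without 9_3) to -0.038 (without 10_2), and with the length trend removed it was -0.12. The interaction ran from 0.17 to 0.28 with 1 mouse left out, but was 0.14 without 8_4 and 9_3 and 0.086 with the length trend removed, where the main effect of the bacterium was -0.15 (limma adjusted p = 0.183).

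Whether *Reln* was called depended on the method. DESeq2, the tool the study used, run here on the reads recovered from the normalized counts, gave *Reln* a log2 fold change of -0.36 against control with *R. flavefaciens* (DESeq2 adjusted p = 0.00592; 3.26% of genes called) and -0.31 with both treatments (adjusted p = 0.0203; 1.45% called), and edgeR on the same reads gave an adjusted p of 0.0751 and 0.0779. The main effect of the bacterium by DESeq2 was -0.25 (adjusted p = 0.00714; 2.95% called). Over the tested settings the *Reln* difference kept its sign in all 3 comparisons with control, and the plot of *Reln* by setting shows where it passed. It passed with the bacterium when mice sharing the first number of their label were treated as a block (adjusted p = 0.0390 by limma, 1.48% of genes called). In that fit the estimated correlation between such mice was negative (-0.045), and each number occurs in 1 group only. With both treatments *Reln* passed when the 2 compared groups alone were fitted (adjusted p = 0.0430 by limma, 1.31% called). The adjusted p by limma was 0.0559 with both treatments under the block, and 0.184 with the bacterium when the compared groups alone were fitted.

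**Figure D2:**
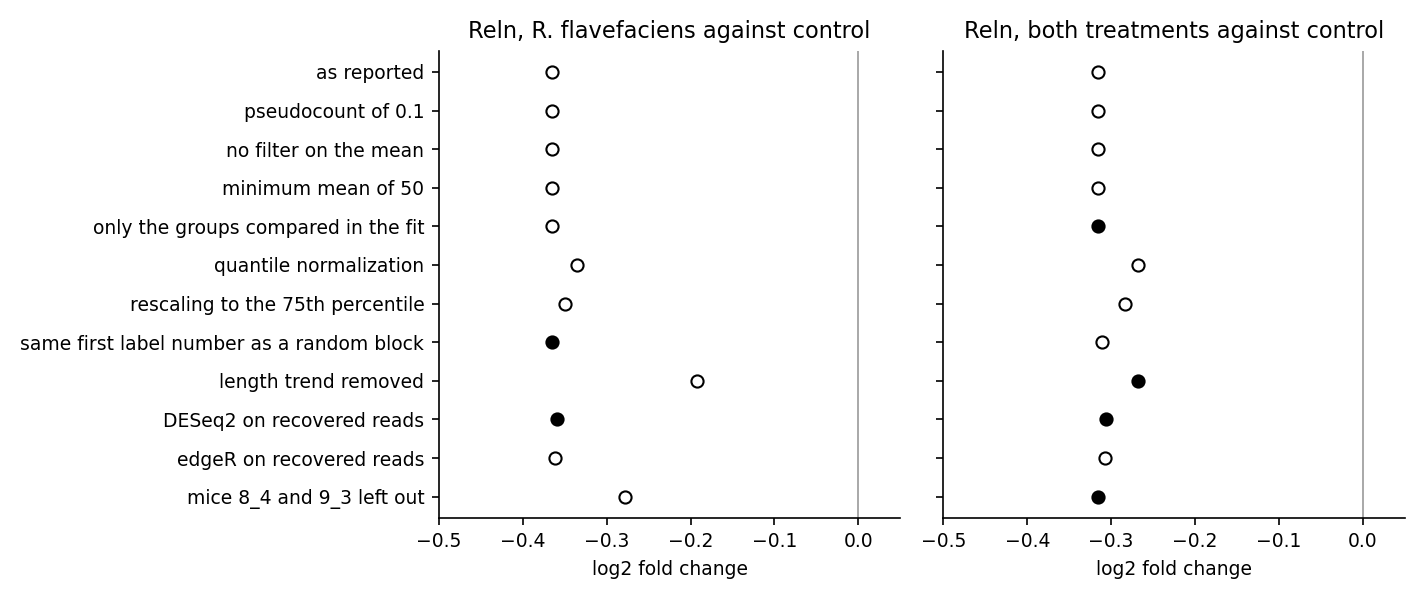
Log2 fold change of *Reln* (x axis) against control in *R. flavefaciens* treated mice (left) and in mice given both treatments (right), for the reported fit and 11 other settings (y axis); filled points had an adjusted p under 0.05. All points lie below 0; with a gene-length trend removed the left value shrank from -0.37 to -0.19, while the right one was -0.27.

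Mice 9_3 and 8_4 of the *R. flavefaciens* group each held an extreme of a library measure. Mouse 9_3 had the lowest value of all 24 mice for *Reln* (963), *Vldlr* (829.3), *Lrp8* (941) and *Dab1* (1088). Its counts also fell most with gene length, with a slope of -0.172 log2 units for each doubling of exon length against 0.034 ± 0.011 (SD, n = 6) in control mice. Mouse 8_4 had the highest sums of striatum and choroid plexus markers, 2 neighbouring tissues, among the 24 mice, with a summed level of 8 striatum markers of 5872 normalized counts against 1540.5 to 2285 in controls, and of 3 choroid plexus markers of 791 against 39.2 to 64.2. For the olfactory bulb markers 9_3 was highest (1395), and 8_4 (1267) lay below other mice. That sum was mostly *Lhx2*, on average 1103 of 1184 normalized counts in control, and *Tbx21* and *Eomes* were not among the genes measured. It therefore speaks mainly for *Lhx2* and not for olfactory bulb tissue as such. Mouse 11_4, given both treatments, had 3339 for the striatum markers, also above the controls, and the second lowest length slope was -0.064, in mouse 7_2 of the *R. flavefaciens* group. By the mean chi-square per degree of freedom between the reads of a mouse and those of its group mates, 9_3 was farthest out (19.8), while 12_2 (13.0), 9_1 (12.2) and 12_4 (11.9) lay farther out than 8_4 (11.7). The *Reln* value of 8_4, 1128, was the second lowest in its group. Without 9_3, mean *Reln* in the group was 1226 ± 80.3 (SD, n = 5) and the log2 fold change -0.31 (limma adjusted p = 0.132). Without both mice, it was -0.28 (adjusted p = 0.317 by limma), while the value for both treatments stayed at -0.32, with an adjusted p of 0.0235 and 2.26% of genes called. In that fit, chosen after seeing the data, *Vldlr* was -0.05, *Lrp8* -0.03 and *Dab1* -0.05 against control in *R. flavefaciens* treated mice.

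The mean length slope was 0.034 in control, 0.013 in duloxetine treated, -0.040 in *R. flavefaciens* treated and -0.0068 in mice given both, and in the *R. flavefaciens* group the SD was 0.074 (n = 6). With group means taken off, *Reln* and the slope had a Pearson's r of 0.76 (Spearman's rho 0.79) over 24 mice, and 0.66 without the 2 mice farthest out. For *Lrp8* these values were 0.83, 0.64 and 0.70, and for *Dab1* 0.70, 0.50 and 0.44. For *Vldlr* they were 0.70, 0.14 and 0.31, so its r rested on the 2 mice. The 4 members, of 4718 to 11699 exonic bases, share libraries with the genes that set the slope, so these values are a description. With a smooth length trend removed from each mouse, *Reln* differed from control by -0.19 with *R. flavefaciens* (adjusted p = 0.221 by limma), by -0.27 with both (adjusted p = 0.0389; 0.368% of genes called) and by -0.16 with duloxetine. On these values, 6 of 6 mice in each group given the bacterium lay below all control mice for *Reln*, as they did for 0.274% of genes with *R. flavefaciens* and 1.02% with both.

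**Figure D3:**
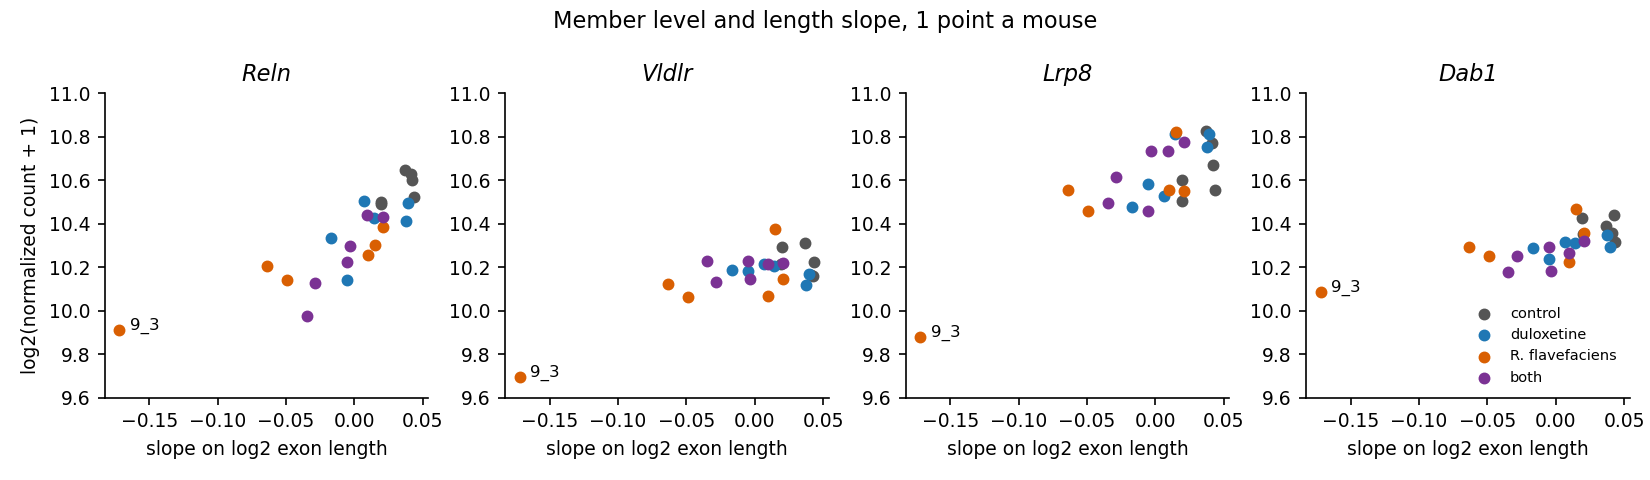
Level of each gene, as log2(normalized count + 1) (y axis), against the slope of a library's log2 deviations on log2 exon length (x axis), 1 point for each of 24 mice, colored by group. Mouse 9_3, at a slope of -0.172, is lowest in all 4 panels, and *Reln* rises with the slope also among the other mice.

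Against control, the receptors differed less than the ligand. Between mice given both treatments and those given the bacterium alone, the fitted differences of the receptors were above that of *Reln*. *Lrp8* was 0.17 (95% interval -0.045 to 0.37) and *Vldlr* 0.11 (95% interval -0.019 to 0.25), with intervals that include 0. Without 9_3 these were 0.047 and 0.038, and without both 8_4 and 9_3 they were 0.014 and 0.015. *Vldlr* (ENSMUSG00000024924.14, chromosome 19, 27216484 to 27254231, plus strand) encodes the very-low-density lipoprotein receptor. Its normalized counts ran from 1145 to 1272 (median 1192) in control, 1111 to 1187 (median 1163) in duloxetine treated, 829.3 to 1329 (median 1094) in *R. flavefaciens* treated and 1120 to 1200 (median 1189) in mice given both. In the *R. flavefaciens* group 5 of 6 mice lay below all controls and the sixth, 9_1, lay above all of them, so the groups overlapped. How many genes had 5 of 6 mice below was not counted. The log2 fold change there was -0.15 (SE 0.065, limma adjusted p = 0.200), which became -0.07 without 9_3, -0.21 without 9_1 and -0.03 with the length trend removed. Mice given both treatments and mice given duloxetine alone differed from control by -0.04 (95% interval -0.17 to 0.099) and -0.05 (95% interval -0.18 to 0.085). With 1 mouse left out these ran from -0.049 to -0.018 and from -0.063 to -0.033, both nearest to 0 without control mouse 2_2, and the first turned to 0.011 after quantile normalization.

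*Lrp8* (ENSMUSG00000028613.14, chromosome 4, 107802261 to 107876840, plus strand) encodes apolipoprotein E receptor 2, the partner receptor known for its role in synaptic plasticity. Normalized counts ran from 1455 to 1815 (median 1591) in control, 1425 to 1801 (median 1630) in duloxetine treated, 941 to 1811 (median 1502) in *R. flavefaciens* treated and 1406 to 1751 (median 1636) in mice given both. All groups overlapped with control, and 2 of 6 mice in each group given the bacterium were below all controls. The log2 fold change with *R. flavefaciens* was -0.18 (SE 0.10, adjusted p = 0.321 by limma), -0.07 without 9_3, -0.25 without 9_1 and -0.15 with the length trend removed. With both treatments it was -0.02 (95% interval -0.23 to 0.19) and with duloxetine 0.01 (95% interval -0.20 to 0.22), and both changed direction in some fits with 1 mouse left out (-0.049 to 0.016 and -0.025 to 0.043). The first was also 0.032 after quantile normalization and 0.013 after rescaling to the 75th percentile. An antisense gene, *Lrp8os2*, overlaps *Lrp8* and averaged 7.06 normalized counts. The counting is not stated to use strand, so its reads and those of *Lrp8* may mix, to an extent that was not measured.

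*Dab1* (ENSMUSG00000028519.16, chromosome 4, 103619359 to 104744844, plus strand), the intracellular adaptor, varied by 2.6% to 8.9% (coefficient of variation) within groups. Its normalized counts ran from 1273 to 1391 (median 1327) in control, 1207 to 1305 (median 1260) in duloxetine treated, 1088 to 1415 (median 1236) in *R. flavefaciens* treated and 1160 to 1279 (median 1224) in mice given both. Below all controls were 4 of 6 duloxetine treated, 4 of 6 *R. flavefaciens* treated and 5 of 6 mice given both, and mouse 9_1 was above all controls. The shares of all genes with as many mice below were not counted. The log2 fold change was -0.13 with both treatments (SE 0.048, 95% interval -0.23 to -0.035, limma adjusted p = 0.179), -0.10 with the bacterium (adjusted p = 0.240 by limma) and -0.08 with duloxetine (SE 0.048). With both treatments it stayed between -0.15 and -0.12 when any 1 mouse was left out. With the bacterium it ranged from -0.14 to -0.06 (-0.06 without 9_3), and it was -0.045 without 8_4 and 9_3 and -0.040 with the length trend removed (limma adjusted p = 0.786). These values are those of 3 comparisons that share the 6 control mice.

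**Figure D4:**
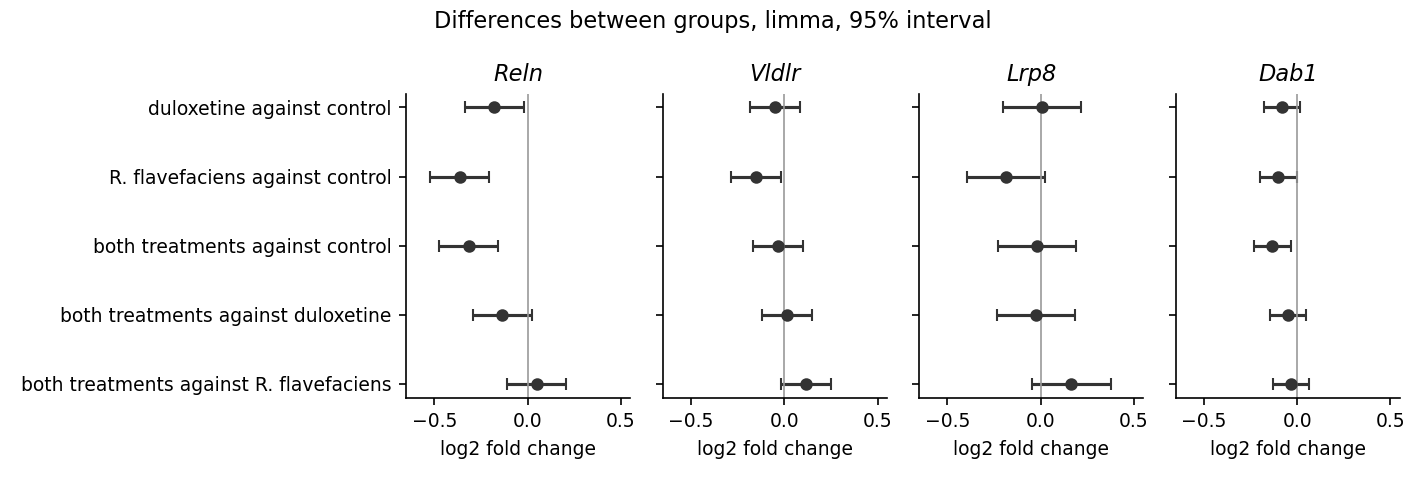
Log2 fold changes (x axis, points) with 95% intervals (bars) of the 4 genes in 5 comparisons (y axis), from 1 limma fit over 24 mice. The *Reln* intervals against control lie below 0 with the bacterium (-0.52 to -0.21) and with both treatments (-0.47 to -0.16); no gene passed an adjusted p of 0.05.

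Per kilobase of exon, the signal transducers were more abundant than the ligand. Mean normalized counts per kilobase were 333 for *Lrp8*, 220 for *Dab1*, 139 for *Vldlr* and 113 for *Reln*, and the order held in 24 of 24 mice. The closest neighbours were *Vldlr* and *Reln*, at a ratio of 1.25 ± 0.15 (SD, n = 24) that ran from 1.02 to 1.67. *Lrp8* was higher than 82.4% of 15438 genes on this scale and *Reln* higher than 57.6%.

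The spread between mice was part of the pattern. The coefficient of variation of *Reln* was 4.8% in control, 9.0% in duloxetine treated, 10.9% in *R. flavefaciens* treated and 12.2% in mice given both. For *Vldlr* it was 14.7% in the *R. flavefaciens* group and 2.3% to 4.4% elsewhere, and for *Lrp8* 19.6% against 8.7% to 10.4%. Without 9_3, these values for the *R. flavefaciens* group fell to 9.3% for *Vldlr*, 10.0% for *Lrp8* and 6.6% for *Reln*. With group means taken off, *Reln* went with *Lrp8* (r = 0.71 over 24 mice, 0.58 without 9_3) and *Dab1* (r = 0.63, 0.48 without 9_3). The receptors went with each other at r = 0.69, but at 0.25 without 9_3, and *Reln* with *Vldlr* at 0.46 and 0.13. The length trend was not removed for these r values.

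Over the 11935 genes that averaged 50 or more normalized counts, those most like *Reln* within groups were *Tenm4* (Pearson's r = 0.89 over 24 mice), a teneurin adhesion protein, *Plxnc1* (0.87), a semaphorin receptor, and *Eea1* (0.86), an early endosome protein. The least alike was *Cox6c* (-0.85), a subunit of cytochrome c oxidase. *Tenm4* had a mean of 3388 normalized counts in control and 2935 in *R. flavefaciens* treated mice, and *Cox6c* 1594 and 1933. For *Lrp8* the nearest were *Synj2* (0.93), *Cacna1c* (0.92), an L-type calcium channel subunit, and *D630045J12Rik* (0.92), and the farthest *Rab4a* (-0.89). *Dab1* was nearest to *Ppp1r12a* (0.88), a myosin phosphatase subunit, *Vps13a* (0.83) and *Zbtb33* (0.83), and farthest from *Thrsp* (-0.80). For *Vldlr* they were *Itpr1* (0.86), the inositol trisphosphate receptor, *Arhgap35* (0.85) and *Mprip* (0.85), with *Rogdi* least alike (-0.84), and these rested on 9_3, since without it they were 0.63, 0.65, 0.60 and -0.64. The length trend was left in for all of these correlations. The members themselves had a Pearson's r of 0.70 to 0.83 with the length slope, and the part of that trend in the likenesses was not tested.

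Around the 4 members, 75 genes of the pathway were tested in 5 lists. Against control, 0 of 75 passed limma's adjusted p of 0.05 with duloxetine, with *R. flavefaciens* or with both, while 2, 19 and 13 had an unadjusted p under 0.05, of which 2, 13 and 12 were lower. Those are 2.67%, 25.3% and 17.3% of the 75, where 3.83%, 19.6% and 16.8% of all genes tested had such a p. DESeq2 called 0, 4 and 3 of the 75, where it called 0.00668%, 3.26% and 1.45% of all genes, and edgeR called 0 of the 75 in each. The median log2 fold change of the 75 was -0.0070 with the bacterium and -0.06 with both, against 0.0031 and 0.0007 over all genes tested. Of all genes tested, 49.2% and 49.8% were below 0 in these comparisons.

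The enzymes and inhibitors that cut reelin or limit its cutting (8 genes) had medians of -0.02 with the bacterium and 0.01 with both. The most abundant, *Serpine2*, a serine protease inhibitor, was 0.15 with *R. flavefaciens* (SE 0.067, limma adjusted p = 0.209). The other ligands and the handlers of the receptors (13 genes) had medians of 0.03 and -0.03. *Apoe*, a lipoprotein that the same receptors bind, was the most abundant and averaged 11654 ± 621 normalized counts (SD, n = 6) in control and 14370 ± 2298 (n = 6) in *R. flavefaciens* treated mice, a log2 fold change of 0.29 with a limma adjusted p of 0.106 and a DESeq2 adjusted p of 0.0466.

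The kinases and adaptors that act on or after Dab1 (24 genes) had medians of -0.04 and -0.06, and 14 and 19 of 24 were below 0. *Gsk3b*, a kinase held in check through the PI3K and Akt arm, was the most abundant at a log2 fold change of -0.18 with the bacterium (limma adjusted p = 0.157). Chosen after their values were seen, *Rnf7*, part of the ligase complex that degrades phosphorylated Dab1, was 0.23 with the bacterium (adjusted p = 0.0730 by limma and 0.0261 by DESeq2), and *Mtor* was -0.20 with both treatments (0.114 by limma and 0.0478 by DESeq2, both adjusted p).

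Among 19 cytoskeleton and adhesion genes, medians were 0.01 and -0.07. *Ndel1*, a partner of the dynein regulator Lis1, was the single pathway gene that the reported limma fit called in any of the 8 comparisons. Averaged over the bacterium it was lower with duloxetine by limma (main effect -0.14, SE 0.034, adjusted p = 0.0486; 1.03% of genes called), but its adjusted p was 0.0664 after rescaling to the 75th percentile and 0.0544 by edgeR. Leaving out 1 mouse ended the call for 19 of the 24 mice, with an adjusted p by limma of up to 0.0958, and it held without 2_2, 5_1, 5_4, 8_4 or 12_4. *Ndel1* averaged 1329 ± 42.8 normalized counts (SD, n = 6) in control, 1238 ± 50.2 (n = 6) in duloxetine treated, 1300 ± 88.3 (n = 6) in *R. flavefaciens* treated and 1156 ± 82.0 (n = 6) in mice given both. *Pafah1b1*, which encodes Lis1, was the most abundant of the list and had a log2 fold change of -0.14 with the bacterium (limma adjusted p = 0.219). Chosen after their values were seen, *Cdh2*, N-cadherin, was -0.18 with the bacterium (adjusted p = 0.0806 by limma and 0.0324 by DESeq2), and *Mapk8ip2*, a scaffold of JNK signalling, was -0.12 with both treatments (adjusted p = 0.119 by limma and 0.0159 by DESeq2). DESeq2 also called *Ndel1* with both treatments (-0.20, adjusted p = 0.0159), and with these every pathway gene that it called against control is named here.

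Other members of the LDL receptor family (11 genes) had the lowest medians of the 5 lists, -0.13 with the bacterium and -0.10 with both. In each comparison 9 of 11 were below 0, as were 49.2% and 49.8% of all genes tested. *Lrp1*, the most abundant, was -0.22 with the bacterium (SE 0.075, limma adjusted p = 0.120). *Lrp1b*, chosen after its value was seen, averaged 1134 ± 60.1 normalized counts (SD, n = 6) in control and 832 ± 189 (n = 6) with the bacterium, a log2 fold change of -0.48 (adjusted p = 0.0727 by limma and 0.0239 by DESeq2). All values of this list were taken with the length trend left in. The *R. flavefaciens* group had the lowest mean length slope (-0.040 against 0.034 in control), and its part in these values was not tested.

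**Figure D5:**
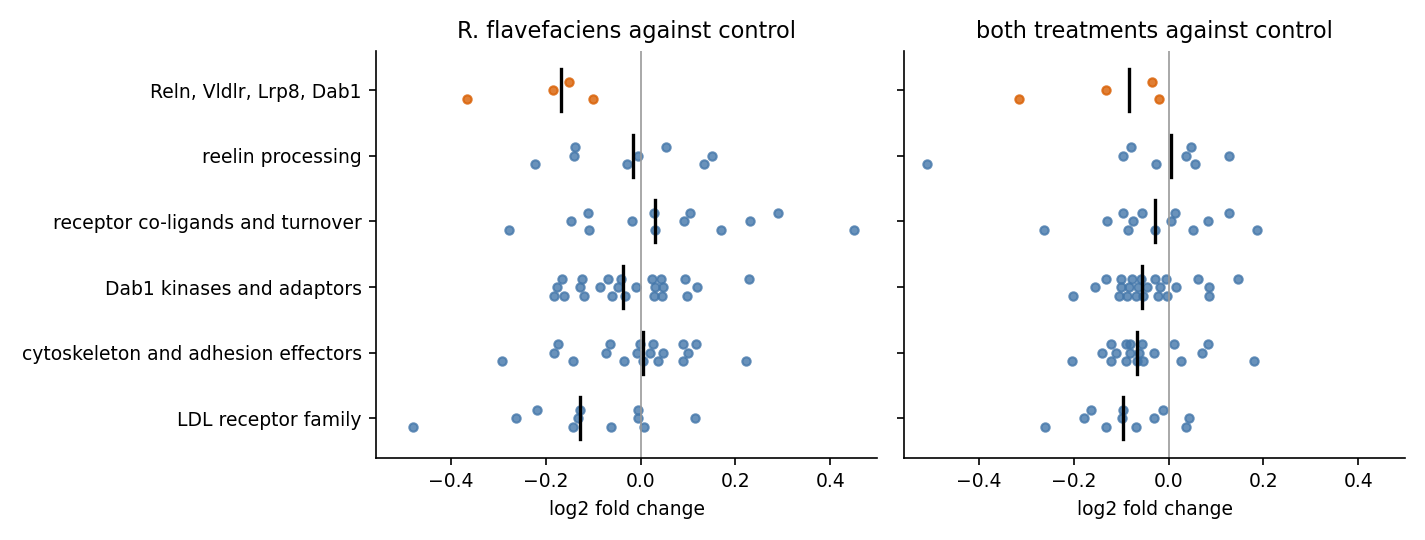
Log2 fold changes against control (x axis) of the 4 members (top row) and of the 75 genes of 5 pathway lists (y axis), with *R. flavefaciens* (left) and with both treatments (right); each point is a gene and the black bar is the median of its list. Of the 5 pathway lists the LDL receptor family has the lowest medians, -0.13 and -0.10, and no gene passed limma's adjusted p of 0.05 in these comparisons. The length trend was left in.

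In bulk tissue, fewer cells of a type and less RNA per cell cannot be told apart, so markers of some of the cells that can make reelin were measured alongside. Of 7 Cajal-Retzius markers 4 were tested, at a summed 150 ± 22.9 normalized counts (SD, n = 6) in control, 138 ± 27.5 (n = 6) with duloxetine, 154 ± 27.0 (n = 6) with *R. flavefaciens* and 151 ± 28.3 (n = 6) with both, mostly *Calb2*. *Calb2* alone averaged 115 in control, and *Lhx1*, *Lhx5* and *Nhlh2* were not among the genes measured. The sum therefore speaks mainly for *Calb2* and not for Cajal-Retzius cells as such. The median log2 fold change of the 4 tested markers was -0.04 with the bacterium and 0.07 with both, with 2 of 4 below 0 in each. The 8 neurogliaform and layer 1 interneuron markers summed to 6106 ± 199 in control, 6236 ± 313 with duloxetine, 6163 ± 548 with the bacterium and 6177 ± 369 with both (SD, n = 6 each), and their most abundant gene, *Lamp5*, had a log2 fold change of 0.05 with the bacterium. With group means taken off and the length trend left in, *Reln* had r = -0.37 with the first sum and 0.26 with the second over 24 mice. Without the 2 mice farthest out on each sum, r was -0.57 and 0.37.

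Markers of further cells, among them other GABAergic interneurons, a class that can also make reelin, had summed levels on either side of the control mean. These are given in the order control, duloxetine, *R. flavefaciens* and both (mean ± SD, n = 6 each). Each r is with *Reln* over 24 mice after group means were taken off, the second without the 2 mice farthest out on that sum. The length trend was left in here too. The 12 cortical layer markers tested, led by *Cux2*, summed to 12598 ± 256, 12394 ± 332, 12088 ± 672 and 12272 ± 797 (r = 0.52 and 0.30). Their median log2 fold change was -0.15 with the bacterium, with 9 of 12 below 0, and -0.09 with both, with 8 of 12 below 0. Of all genes tested, 49.2% and 49.8% were below 0. The 8 somatostatin, parvalbumin and Vip interneuron markers summed to 3807 ± 236, 3899 ± 209.5, 4571 ± 391 and 4175 ± 470.5 (r = -0.70 and -0.74). *Sst*, the most abundant of them, had a log2 fold change of 0.34 with the bacterium (limma adjusted p = 0.0727). The 8 microglia markers, led by *Csf1r*, summed to 4371 ± 258, 4853 ± 439.9, 4959 ± 394 and 5106 ± 676 (r = -0.68 and -0.64), so their mean was above control in each treated group, also with duloxetine alone. The 5 blood markers, led by *Hbb-bs*, summed to 349 ± 65.7, 462 ± 265, 598 ± 204 and 633 ± 351 (r = -0.26 and -0.26), and the endothelial and pericyte markers, led by *Rgs5*, to 5234 ± 310.0, 5574 ± 622, 5572 ± 407 and 5957 ± 912 (r = -0.56 and -0.48). These sums, too, were higher on average in each treated group than in control. For the blood markers with duloxetine this leaned on mouse 6_3, at 984. The rest of that group ran from 289 to 482, and control mice from 278 to 448. The oligodendrocyte markers, led by *Mbp*, summed to 26040 ± 8376, 29833.5 ± 14650.5, 31683 ± 15518 and 30702 ± 17135 (r = -0.42 and -0.38), and the astrocyte markers, led by *Slc1a2*, to 69492 ± 4539, 71697.5 ± 4059, 67970 ± 6521 and 77451 ± 9326 (r = -0.13 and -0.30). With the bacterium the astrocyte sum was below control, but the median log2 fold change of its 8 genes was 0.14 and 2 of 8 were below 0. That sum was lowest in mouse 9_3, at 57455. The rest of its group ran from 63265 to 75080, and control mice from 66156 to 77578. The excitatory neuron markers, led by *Camk2a*, summed to 87677 ± 2858, 88598 ± 3489.9, 86608 ± 5827 and 89779 ± 4358 (r = 0.20 and 0.20), and the 4 olfactory bulb markers tested, led by *Lhx2*, to 1184 ± 69.8, 1231 ± 52.0, 1287 ± 78.4 and 1168 ± 83.4 (r = -0.19 and -0.34). Sums and medians also differed in sign for the olfactory bulb markers with the bacterium (median -0.03) and the excitatory neuron markers with both treatments (median -0.04). For the striatum markers r was -0.21 and -0.34, and for those of choroid plexus -0.18 and -0.18. None of the genes on the marker lists passed limma's threshold against control, and the part of these cells in the *Reln* difference was not tested.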

How the data were processed

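Total RNA from the mPFC was sequenced after library preparation with poly(A) selection. Per the labels the authors used TopHat2 2.1.0, Bowtie2 2.2.6 and DESeq2 1.18.1; the labels name the build mm9 and the methods GRCm38, and 14253 of the 15438 genes found by ID in GENCODE (GRCm38) had the position given there. The counting tool and its strand setting are not given in the sources used here. The deposited signal values are counts per gene divided by the authors' DESeq2 size factors. Within a tolerance of 0.0051 reads, 99.99% of values above 0 were whole multiples of a step, which gave back the reads.

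The members and gene lists were chosen with earlier results of these data known. limma 3.58.1 (R 4.3.3) was fitted with a trend on log2(normalized count + 1) to 14974 genes with a mean of at least 10, over all 4 groups, with Benjamini-Hochberg adjustment within each comparison and a threshold of 0.05. It was tested on simulated data first. Alternatives were DESeq2 1.42.0 and edgeR 4.0.16 on recovered reads, other pseudocounts, filters and scalings, a block for mice sharing the first number of their label, whose meaning is not given, removal of a loess trend on exon length (span 0.3) and leaving out each mouse.

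Named genes were the members, for each the 3 most and the 1 least correlated gene, pathway genes past the threshold and the most abundant gene of each list, and genes named outside this rule are said to have been chosen after their values were seen; the list of general inhibitory neuron markers is not reported here. Sums per marker list are of normalized counts, and promoters are from RefSeq. Intervals measure the spread between mice, and mice housed together were not identified.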

Additional observations from a re-analysis of the deposited data

How the results depend on the processing

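Of 340 values of the 4 members under alternatives other than leaving out 1 mouse, 322 kept their direction and side of the threshold. *Reln* against control with *R. flavefaciens* passed the threshold under the block for the first label number (-0.36, limma adjusted p = 0.0390; 1.48% of genes called) and DESeq2 (-0.36). With both treatments it passed when only the compared groups were fitted (-0.32, adjusted p = 0.0430 by limma; 1.31% called), with the length trend removed (-0.27), under DESeq2 (-0.31) and without mice 8_4 and 9_3 (-0.32), and its main effect of *R. flavefaciens* passed under DESeq2 (-0.25). Reversed values, none past the threshold, were *Reln* for both treatments against *R. flavefaciens* with the length trend removed (-0.075) and without 8_4 and 9_3 (-0.038); *Vldlr* for both against control after quantile normalization (0.011), for its main effect of duloxetine with the length trend removed (-0.0047) and without the 2 mice (-0.017), and for its main effect of *R. flavefaciens* with the length trend removed (0.00020); *Lrp8* for both against control after quantile normalization (0.032) and rescaling to the 75th percentile (0.013), and against duloxetine after quantile normalization (0.0050); and the *Dab1* interaction with the length trend removed (-0.0045) and without the 2 mice (-0.0051). The causes were not tested. *Ndel1* lost its call after rescaling (-0.12) and under edgeR (-0.13), and without any of 19 of the 24 mice (adjusted p by limma 0.0518 to 0.0958).

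Leaving out 1 mouse at a time, *Reln* ranged from -0.40 to -0.31 with *R. flavefaciens* (adjusted p by limma 0.0301 to 0.141, under 0.05 without 8_3, 9_1 or 9_2, where 2.85%, 1.6% and 4.11% of all genes were called), from -0.35 to -0.26 with both (0.0284 to 0.193, under 0.05 without 9_3, 12_3 or 12_4, where 0.821%, 0.287% and 1.03% were called), from -0.28 to -0.22 for the main effect of *R. flavefaciens* (adjusted p under 0.05 without 8_3 or 9_2, where 0.902% and 0.461% were called), and from -0.0086 to 0.10 for both against *R. flavefaciens*. *Vldlr* ranged from -0.0055 to 0.062 for the main effect of duloxetine. *Lrp8* ranged from -0.025 to 0.043 with duloxetine, -0.049 to 0.016 with both and -0.062 to 0.010 for both against duloxetine, and *Dab1* from -0.071 to 0.0053 for both against *R. flavefaciens*.

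Pathway genes called went from 0 to 2 (block) and 4 (DESeq2) with *R. flavefaciens*; from 0 to 2 (compared groups only), 3 (DESeq2) and 3 (without 8_4 and 9_3) with both; from 0 to 2 (quantile), 1 (block), 2 (length trend), 3 (DESeq2) and 2 (without the 2 mice) for both against *R. flavefaciens*, where 2.11%, 3.56%, 2.74%, 4.17% and 3.08% of all genes were called; from 1 to 0 (rescaling, edgeR) and 2 (length trend, DESeq2, without the 2 mice) for the main effect of duloxetine; and from 0 to 4 (DESeq2) for the main effect of *R. flavefaciens*. Without 1 mouse they ranged from 0 to 3, 0 to 2, 0 to 3, 0 to 1 and 0 to 3 in these comparisons. Of all genes, DESeq2 called 1, 488, 217, 1, 624, 321 and 441 in place of 0, 4, 15, 0, 334, 154 and 4 (duloxetine, *R. flavefaciens* and both against control, both against duloxetine and against *R. flavefaciens*, and the main effects of drug and bacterium). With *R. flavefaciens* the count was 0 with the compared groups only and without the 2 mice, 221 with the block and 1 with the length trend removed. With both it was 30 at a minimum mean of 50, 196, 23 after rescaling, 59 with the block, 55 with the length trend removed and 339 without the 2 mice. For both against *R. flavefaciens* it was 0 with the compared groups only and 533 with the block, for the main effect of duloxetine 255 (block), 288 (length trend) and 303 (without the 2 mice), and for that of *R. flavefaciens* 2 (quantile) and 8 (length trend). Without 1 mouse the counts ranged from 0 to 616, 5 to 154, 0 to 2, 47 to 577, 46 to 260 and 1 to 135, in the order above without duloxetine against control. The likeness to *Lrp8* with group means kept was 0.82 for *Synj2* and -0.74 for *Rab4a*. No paired analysis was possible because the groups share no replicate numbers. Each member had at least 815 reads in each mouse.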
